A study of Homo sapiens with 8 samples.

Results

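CRISPR-DREAM was compared with the dCas9 + MCP-mCherry control by RNA sequencing (RNA-seq) of HEK293T cells, an established human embryonic kidney line that carries the SV40 large T antigen. The comparison used 4 of the 8 libraries in the series, 2 with CRISPR-DREAM (dCas9 + MCP-MSN) and 2 controls, chosen by their treatment labels. The other libraries, 2 with the SAM system (dCas9-VP64 + MCP-p65-HSF1) and 2 with dCas9-VPR, entered the same fit and are used where CRISPR-DREAM was compared with them. Plasmids were transfected transiently and RNA was taken 72 h later from the whole culture, with no sorting of transfected cells described. All groups, the control among them, also received a pool of gRNAs that target the *HBG1* and *HBG2* promoters. The labels give MS2 gRNAs for each group except dCas9-VPR. The control therefore shares dCas9 and the gRNAs with CRISPR-DREAM and differs in the protein fused to MCP. What follows describes gene classes and single genes beyond the globin locus and the effector genes.

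In CRISPR-DREAM, a nuclease-dead Cas9 is brought to a promoter by a gRNA whose MS2 stem-loops bind the MS2 coat protein (MCP). The coat protein carries MSN, a fusion of transactivation domains that include those of MRTF-A and NRF2. MRTF-A is the actin-regulated partner of the serum response factor SRF, and NRF2 drives antioxidant genes. Such domains activate transcription by recruiting coactivators, among them Mediator and histone acetyltransferases.

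The values are CPM (read counts scaled to the library total) for 19770 genes as the authors deposited them, with 0.0001 CPM added to each value. A gene with nothing beyond that addition is given as 0. Depth was estimated at 28.4 to 31.6 M reads in the 4 libraries compared, so that 3 reads correspond to 0.095 to 0.105 CPM. Log2(CPM + 0.5) was fitted with limma, and fold changes below are on this scale, on which genes with low values appear less changed than they are. Over 9799 genes with at least 10 CPM, replicates differed with a standard deviation of 0.136 on the log2 scale in the control and 0.172 with CRISPR-DREAM. Nothing in the labels says that replicates came from separate cultures, so p-values measure the spread between these libraries. Because each group holds 2 libraries, the smallest p that a two-sided exact permutation test could give for 1 gene is 0.333. The target check followed the labels, since *HBG2* was at 1.29 and 0.838 CPM in the control libraries and 2187 and 2874 CPM with CRISPR-DREAM. Values of *MRTFA* were 29.6 and 26.7 CPM in the control libraries and 2819 and 2691 CPM with CRISPR-DREAM and *NFE2L2*, the gene of NRF2, at 47.0 and 44.0 CPM in the control libraries and 275 and 268 CPM with CRISPR-DREAM, and reads of the transfected effector cannot be told apart from those of these genes. *PAX2* and *LHX1*, markers of embryonic kidney, were at 0.798 to 2.25 CPM. Of the defining markers of other cell types, the erythroid genes *SLC4A1* and *KLF1* stayed at 0.489 CPM or below in the 4 libraries. The endothelial *PECAM1* was at 0.032 and 0.13 CPM in the control libraries and 0.57 and 0.457 CPM with CRISPR-DREAM. The fibroblast gene *COL1A1* was at 8.996 and 8.509 CPM in the control libraries and 11.77 and 11.13 CPM with CRISPR-DREAM. *PDGFRA*, also of fibroblasts, was at 1.627 and 1.336 CPM in the control libraries and 0.732 and 1.299 CPM with CRISPR-DREAM. *PTPRC*, *CDH5* and *ALAS2* were not analysed here.

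Of 15122 genes tested, 309 were higher with CRISPR-DREAM and 76 were lower by more than 2-fold with the false discovery rate (FDR) below 0.05. These are 2.04% and 0.503% of the genes tested. Of the 309 genes higher, 125 had both controls below 1 CPM and were tested only because activator libraries reached it. The same holds for each gene named below whose control values both lie below 1 CPM. Without the fold requirement, 2837 genes were higher (18.8%) and 1399 lower (9.25%) at an FDR below 0.05. Median-of-ratios scaling evened this split to 2073 higher and 2162 lower. The counts were 1475 and 744 without control replicate 2, and 847 were lower without control replicate 1. Counts of class members below are at this FDR unless 2-fold is named and are to be read beside these shares, since genes higher outnumbered genes lower as a whole. Where leaving out 1 library moved a class count of 5 or more by over 1.5 times, the count without that library stands beside it in parentheses or in the same paragraph. A gene whose 2-fold call was lost without a library has its log2 fold change without that library given last in its parentheses. Counts under 5 rest on few genes and also moved with single libraries. The share past the 2-fold threshold was larger at low levels. Of the 740 genes with a mean below 1 CPM, 50 were higher and 10 lower, whereas of the 1889 genes at 100 CPM or more, 7 were higher and 0 lower. Fewer genes were listed at 0 with CRISPR-DREAM, at 233 and 240 genes against 386 and 395 in the control. The median log2 fold change of all genes was 0.06, and it was -0.01 under median-of-ratios scaling. Protein-coding genes made up 294 of the rises and 54 of the falls, and long noncoding RNAs 10 of the rises and 12 of the falls. In the plot of level against change, *HBG2*, *MRTFA* and a read-through transcript of the globin locus stand far above every other gene, and most other changes past 2-fold lie below 30 CPM.

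**Figure D1:**
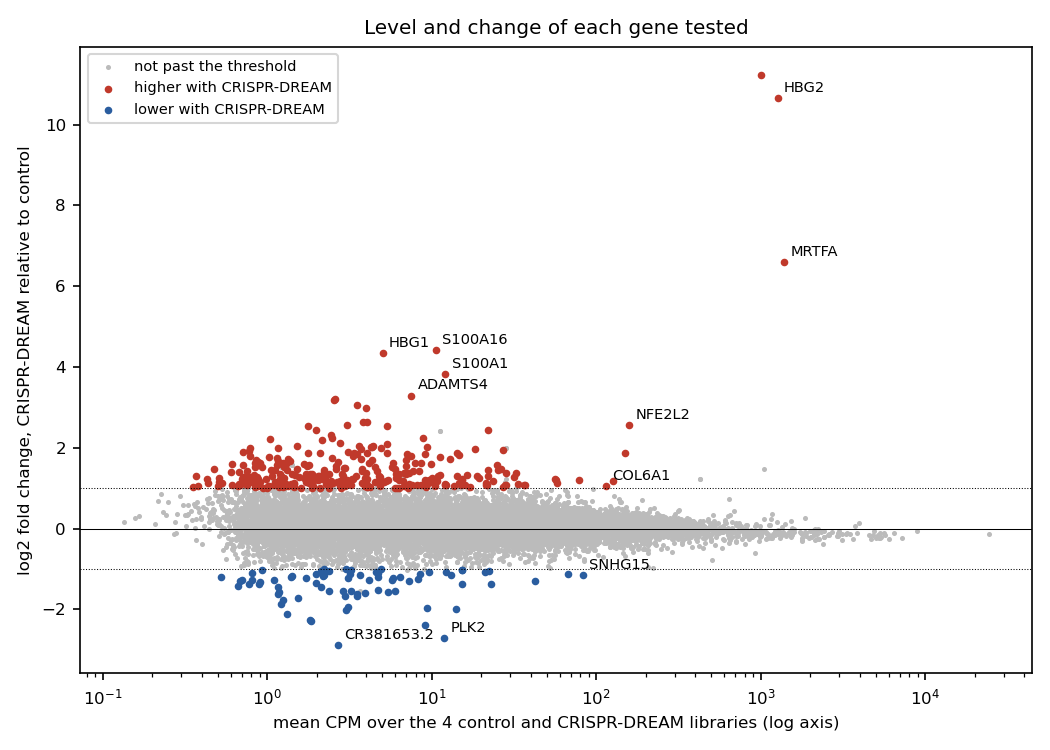
Mean CPM of the 4 control and CRISPR-DREAM libraries (horizontal, log axis) against the log2 fold change of CRISPR-DREAM relative to control (vertical) for 15122 genes. Dotted lines mark a 2-fold change, red points the 309 genes higher and blue points the 76 genes lower at an FDR below 0.05, and the unlabelled red point beside HBG2 is a read-through transcript of the globin locus.

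The S100 genes, which encode small EF-hand calcium-binding proteins, held the largest rises. Of 13 in the files, 9 were tested, 6 were higher and 0 lower at an FDR below 0.05, 3 were higher by more than 2-fold, and their median log2 fold change was 0.74. For 2 of the 3 past 2-fold, *S100A16* and *S100B*, both controls lay below 1 CPM, so they were tested only because other libraries reached it, and the counts do not describe the whole family. *S100A16* (chromosome 1, 153606886 to 153613146, minus strand, hg38) was at 0.351 and 0.652 CPM in the control libraries and 19.6 and 21.7 CPM with CRISPR-DREAM. On the log2(CPM + 0.5) scale this was the largest rise outside the globin locus and the effector genes. Its log2 fold change was 4.42 (limma, standard error 0.15, adjusted p = 5.43e-08), and by mean CPM it was 41.2-fold higher. Genes with control values near 0 can have larger ratios of mean CPM. *S100A1* (153627926 to 153632040, plus strand), best known from heart muscle, was at 1.12 and 1.18 CPM in the control libraries and 19.2 and 26.9 CPM with CRISPR-DREAM. Its log2 fold change was 3.82 (limma adjusted p = 5.13e-07). Between them lies *S100A13*, which overlaps *S100A1* on the opposite strand. It was at 40.4 and 45.4 CPM in the control libraries and 65.2 and 79.4 CPM with CRISPR-DREAM, a smaller rise (log2 fold change 0.74, limma adjusted p = 0.00143). The library kit is named as stranded, but whether reads were counted by strand is not given in the sources used here, and reads of *S100A1* and *S100A13* may have been divided imperfectly. *S100A14*, in the same interval, was at or below 0.492 CPM in these libraries and was not tested. Farther along the cluster, *S100A10* did not pass the test, with a log2 fold change of -0.12 (limma adjusted p = 0.273), and *S100A11* was higher by 0.25 (limma adjusted p = 0.016).

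The same pair separated the activators. *S100A16* was at 9.86 and 10.5 CPM with the SAM system and 4.89 and 4.81 CPM with dCas9-VPR. The difference of CRISPR-DREAM from dCas9-VPR was 1.98 (standard error 0.15, limma adjusted p = 0.000140) on the log2 scale, and that from the SAM system was 0.98 (standard error 0.15, limma adjusted p = 0.00778). *S100A1* was at 4.79 and 6.11 CPM with the SAM system and 10.7 and 11.1 CPM with dCas9-VPR. CRISPR-DREAM was higher than both, by 1.97 (standard error 0.16, limma adjusted p = 0.000598) and by 1.03 (standard error 0.16, limma adjusted p = 0.00419). The order of the other activators therefore differed between the neighbours, with SAM above dCas9-VPR for *S100A16* and below it for *S100A1*.

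Promoters of the genes with the largest changes were read from RefSeq on GRCh38.p14, as 250 bases before to 50 bases after the start, and a sequence was found for 12 of these 27 genes. Those of 3 rises and 2 falls are shown, because they head the lists in each direction or hold a motif of a factor in the MSN fusion. Capitals mark matches on either strand to TGACTCA (AP-1 site), TGACGTCA (CRE), TGACNNNGC (antioxidant response element core, the NRF2 motif), the CArG box of SRF, the GC box of SP1, spelled GGGCGG, and the TATA box of the core promoter, spelled TATAAA. An AP-1 site followed by GC also matches the antioxidant core.
S100A16 (chr1:153613088-153613387, minus strand): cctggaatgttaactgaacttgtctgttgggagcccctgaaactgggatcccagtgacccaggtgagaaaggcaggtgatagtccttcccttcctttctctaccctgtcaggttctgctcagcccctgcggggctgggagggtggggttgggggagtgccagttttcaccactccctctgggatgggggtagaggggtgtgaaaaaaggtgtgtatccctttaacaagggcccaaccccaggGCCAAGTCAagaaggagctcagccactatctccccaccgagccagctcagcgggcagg
S100A1 (chr1:153628184-153628483, plus strand): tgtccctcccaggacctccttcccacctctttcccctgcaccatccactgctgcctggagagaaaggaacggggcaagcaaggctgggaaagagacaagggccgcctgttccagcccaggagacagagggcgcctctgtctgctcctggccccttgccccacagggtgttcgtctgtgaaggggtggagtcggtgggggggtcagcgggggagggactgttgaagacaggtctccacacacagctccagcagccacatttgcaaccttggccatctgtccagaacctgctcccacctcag
FBLN2 (chr3:13548875-13549174, plus strand): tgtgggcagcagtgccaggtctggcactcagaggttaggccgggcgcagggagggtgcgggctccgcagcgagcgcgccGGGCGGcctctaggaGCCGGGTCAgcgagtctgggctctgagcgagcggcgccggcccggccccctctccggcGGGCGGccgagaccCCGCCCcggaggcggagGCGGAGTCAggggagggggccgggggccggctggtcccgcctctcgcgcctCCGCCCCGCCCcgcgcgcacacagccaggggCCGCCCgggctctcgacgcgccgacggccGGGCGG
PLK2 (chr5:58460037-58460336, minus strand): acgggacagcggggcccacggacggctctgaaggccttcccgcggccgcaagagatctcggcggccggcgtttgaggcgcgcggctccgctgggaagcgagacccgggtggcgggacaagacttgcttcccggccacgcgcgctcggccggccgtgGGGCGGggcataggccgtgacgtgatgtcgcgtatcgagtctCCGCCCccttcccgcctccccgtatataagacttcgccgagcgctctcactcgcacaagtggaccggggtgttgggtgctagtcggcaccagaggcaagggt
EDA2R (chrX:66639220-66639519, minus strand): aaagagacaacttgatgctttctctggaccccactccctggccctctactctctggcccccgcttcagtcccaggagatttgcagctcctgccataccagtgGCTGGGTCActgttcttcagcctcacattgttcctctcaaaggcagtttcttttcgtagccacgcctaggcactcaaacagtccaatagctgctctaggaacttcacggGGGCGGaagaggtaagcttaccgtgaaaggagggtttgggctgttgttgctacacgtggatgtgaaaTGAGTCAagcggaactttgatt
The *S100A16* window held 1 antioxidant core and no other motif, that of *S100A1* none, that of *FBLN2* 2 antioxidant cores and 7 GC boxes, that of *PLK2* 2 GC boxes, and that of *EDA2R* 1 AP-1 site, 1 antioxidant core and 1 GC box. The antioxidant core was found in 14.9% of the 194 promoters available for genes higher past the threshold, in 20.9% of 43 for genes lower and in 15.1% of 10984 for genes tested. For the CArG box the shares were 1.03%, 2.33% and 1.03%. The GC box, a motif of broadly active promoters, was in 58.8% of promoters of genes higher, 55.8% of genes lower and 71.1% of genes tested. Over all 27305 promoters of this length the shares were 13.6% for the antioxidant core, 1.28% for the CArG box and 44.6% for the GC box. For the remaining motifs, in the order genes higher, genes lower, genes tested and all promoters, the AP-1 site was in 5.67%, 6.98%, 2.704% and 4.92%, the CRE in 1.03%, 6.98%, 3.40% and 1.98%, and the TATA box in 3.09%, 9.30%, 5.35% and 11.9%. The 43 promoters of genes lower are few, so that 3 of them make 6.98%.

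The other 13 of the 15 largest rises, and the 12 largest falls given after them, were chosen among genes whose control and CRISPR-DREAM values did not overlap, so their separation is no finding. *ADAMTS4*, an aggrecan-cleaving protease, was at 0.798 and 1.21 CPM in the control libraries and 13.4 and 14.7 CPM with CRISPR-DREAM, with a log2 fold change of 3.29 (limma, standard error 0.15, adjusted p = 7.78e-07). *LEFTY2*, a secreted inhibitor of Nodal signalling, was at 0.313 and 0.412 CPM in the control libraries and 5.71 and 7.68 CPM with CRISPR-DREAM, which gave a log2 fold change of 3.05 (limma, standard error 0.17, adjusted p = 2.87e-06). *CSPG4*, the NG2 proteoglycan, was at 7.35 and 5.70 CPM in the control libraries and 42.9 and 32.1 CPM with CRISPR-DREAM, with a log2 fold change of 2.43 (limma, standard error 0.17, adjusted p = 1.57e-05). *FBLN2*, a fibulin of elastic fibres, was at 2.36 and 3.16 CPM in the control libraries and 15.6 and 14.05 CPM with CRISPR-DREAM (log2 fold change 2.24, limma adjusted p = 3.13e-06). *B3GNT8*, a glycosyltransferase that extends N-glycans, was at 0.734 and 0.326 CPM in the control libraries and 7.21 and 7.76 CPM with CRISPR-DREAM (log2 fold change 2.98, limma adjusted p = 3.74e-06).

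Another of these rises, *TNNC1*, troponin C of slow and cardiac muscle, was at 0.798 and 0.685 CPM in the control libraries and 5.82 and 8.78 CPM with CRISPR-DREAM, with a log2 fold change of 2.63 (limma, standard error 0.19, adjusted p = 1.19e-05). *DES*, the intermediate filament desmin, was at 0.479 and 0.554 CPM in the control libraries and 4.65 and 6.53 CPM with CRISPR-DREAM (log2 fold change 2.57, limma adjusted p = 2.27e-05). *SYNPO*, an actin-associated protein of podocytes and dendritic spines, was at 1.69 and 1.73 CPM in the control libraries and 9.46 and 8.39 CPM with CRISPR-DREAM (log2 fold change 2.09, limma adjusted p = 3.13e-06). *DNALI1*, a light chain of axonemal dynein, was at 1.24 and 1.21 CPM in the control libraries and 9.05 and 9.97 CPM with CRISPR-DREAM (log2 fold change 2.54, limma adjusted p = 1.44e-06). *DUSP13*, a dual-specificity phosphatase, was at 0.574 and 0.750 CPM in the control libraries and 5.22 and 8.71 CPM with CRISPR-DREAM, CRISPR-DREAM replicates that stood well apart from each other (log2 fold change 2.65, limma adjusted p = 3.14e-05). The remaining named rises were the vesicular glutamate transporter gene *SLC17A7* at 3.54 and 3.26 CPM in the control libraries and 15.5 and 15.2 CPM with CRISPR-DREAM (log2 fold change 2.03, limma adjusted p = 1.91e-06), the chemokine receptor gene *CCR10* at 1.26 and 1.57 CPM in the control libraries and 6.38 and 8.45 CPM with CRISPR-DREAM (log2 fold change 2.04, limma adjusted p = 2.2e-05), and *BIK*, a BH3-only inducer of apoptosis, at 1.18 and 1.04 CPM in the control libraries and 5.47 and 6.81 CPM with CRISPR-DREAM (log2 fold change 2.04, limma adjusted p = 6.29e-05). *ADAMTS4*, *DUSP13*, *DNALI1* and *CCR10* each overlap a gene on the opposite strand, which leaves their share of reads uncertain.

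**Figure D2:**
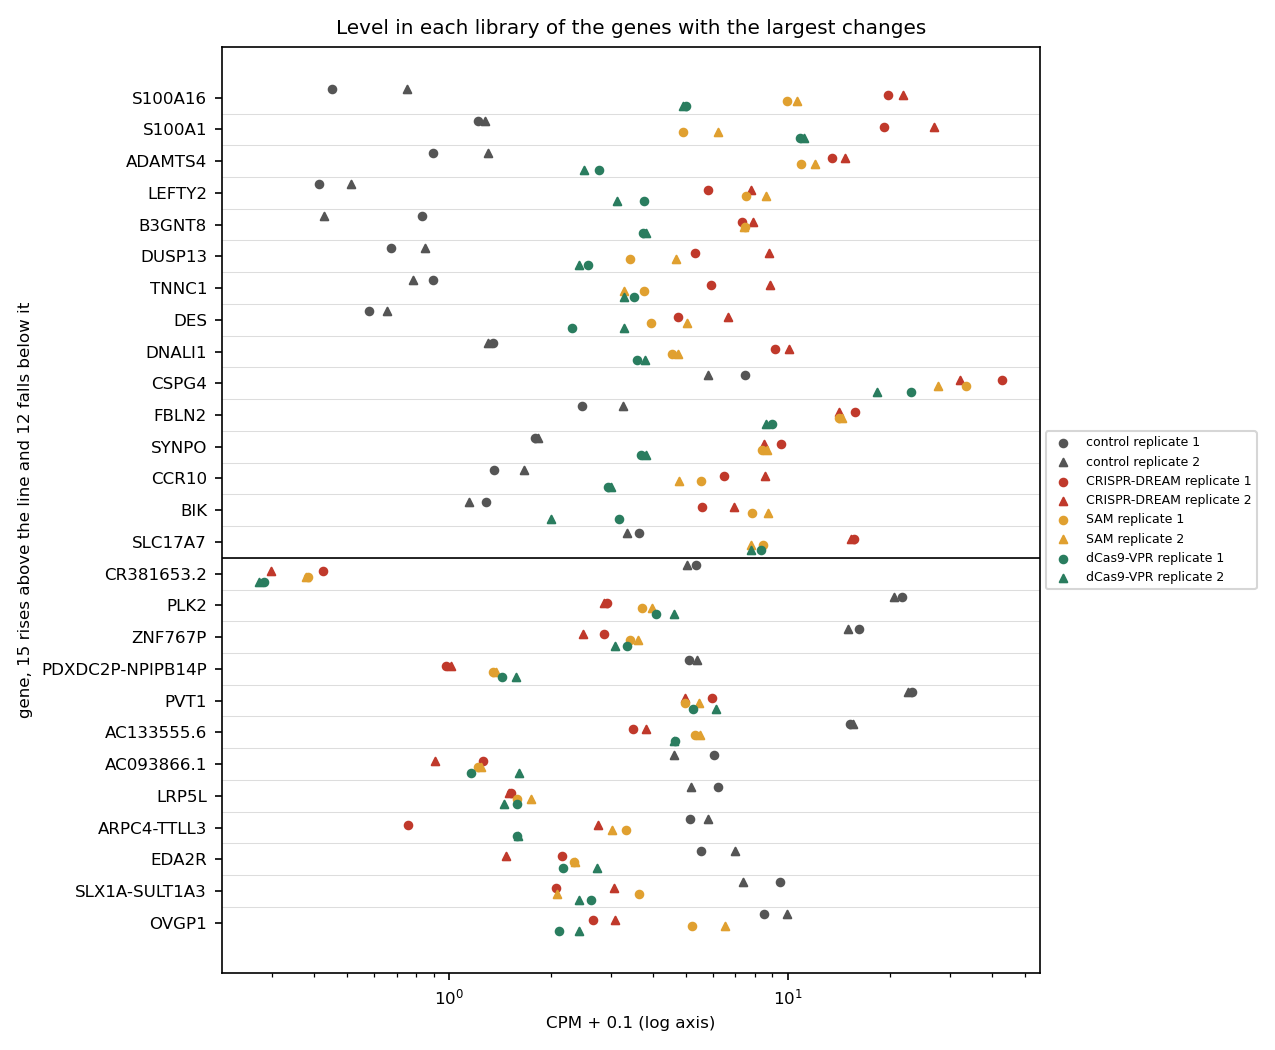
CPM + 0.1 (horizontal, log axis) of the 15 largest rises and the 12 largest falls in each of the 8 libraries, coloured by group with circles for replicate 1 and triangles for replicate 2. By the rule that chose these genes, both CRISPR-DREAM libraries lie to the right of both controls for every rise and to the left for every fall. For every fall the SAM and dCas9-VPR libraries also lie to the left of both controls.

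The plot of these genes by library also shows the other activators. In all 15 rises, the mean with dCas9-VPR lay between those of the control and CRISPR-DREAM. All 15 were higher with CRISPR-DREAM than with dCas9-VPR at an FDR below 0.05, where 7.9% of all genes were higher, and 9 of them by more than 2-fold. Relative to the SAM system, 5 of the 15 were higher with CRISPR-DREAM at an FDR below 0.05, where 1.59% of all genes were higher, and 1, *S100A1*, by more than 2-fold. Over all genes, in either direction, 0.721% were past both thresholds between CRISPR-DREAM and the SAM system and 0.734% between CRISPR-DREAM and dCas9-VPR. Of the 12 falls, 2 were lower than with the SAM system and 1 lower than with dCas9-VPR at an FDR below 0.05, and 0 by more than 2-fold in limma. Here 9.14% of all genes were lower than with the SAM system and 5.21% lower than with dCas9-VPR. The 27 genes were chosen by their values in the CRISPR-DREAM libraries, which these comparisons use again, so the counts lean toward a larger change with CRISPR-DREAM.

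Among the falls, the gene with a known role and the largest change was *PLK2*, a polo-like kinase induced by p53. It was at 21.6 and 20.5 CPM in the control libraries and 2.82 and 2.77 CPM with CRISPR-DREAM, 7.53-fold lower by mean CPM, with a log2 fold change of -2.71 (limma, standard error 0.12, adjusted p = 5.13e-07). It was also low with the SAM system, at 3.60 and 3.87 CPM, and with dCas9-VPR, at 3.98 and 4.52 CPM. *PVT1*, a long noncoding RNA, was at 23.2 and 22.5 CPM in the control libraries and 5.85 and 4.88 CPM with CRISPR-DREAM (log2 fold change -1.998, limma adjusted p = 5.01e-06). The replicates of each group lay close together, and the values of the SAM system (4.86 and 5.37 CPM) and dCas9-VPR (5.15 and 6.03 CPM) were as low. *EDA2R*, a receptor of the tumour necrosis factor family, was at 5.42 and 6.88 CPM in the control libraries and 2.06 and 1.37 CPM with CRISPR-DREAM (log2 fold change -1.60, limma adjusted p = 0.000259). *OVGP1*, an oviductal glycoprotein, was at 8.42 and 9.85 CPM in the control libraries and 2.56 and 2.98 CPM with CRISPR-DREAM (log2 fold change -1.56, limma adjusted p = 7.99e-05), and it was higher with the SAM system than with CRISPR-DREAM (5.12 and 6.43 CPM, limma adjusted p = 0.0088). *CR381653.2*, an unprocessed pseudogene, had the largest fall of all, from 5.27 and 4.92 CPM to 0.325 and 0.197 CPM, with a log2 fold change of -2.88 (limma, standard error 0.19, adjusted p = 5.92e-06). *ZNF767P*, a zinc finger pseudogene, was at 16.1 and 14.96 CPM in the control libraries and 2.76 and 2.38 CPM with CRISPR-DREAM (log2 fold change -2.39, limma adjusted p = 1.91e-06). Of the genes without a known role, *AC133555.6* was at 15.1 and 15.4 CPM in the control libraries and 3.39 and 3.72 CPM with CRISPR-DREAM. *AC093866.1* was at 5.93 and 4.51 CPM in the control libraries and 1.16 and 0.808 CPM with CRISPR-DREAM. *LRP5L*, named for its likeness to a Wnt coreceptor, was at 6.12 and 5.09 CPM in the control libraries and 1.42 and 1.40 CPM with CRISPR-DREAM. *AC133555.6* overlaps other genes on both strands, among them *BOLA2* and *NPIPB12*. The read-through genes *PDXDC2P-NPIPB14P*, *ARPC4-TTLL3* and *SLX1A-SULT1A3*, with log2 fold changes of -2.02, -1.62 and -1.58, share exons with their parts. The value of *ARPC4-TTLL3* was -0.90 without CRISPR-DREAM replicate 1, and without control replicate 2 it did not pass (limma adjusted p = 0.0508). In all, 6 of the 12 falls (these read-through genes, *CR381653.2*, *ZNF767P* and *AC133555.6*) are read-through genes, pseudogenes or overlapping transcripts whose reads could be split with a near copy or an overlapping gene.

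Most genes of DNA replication and mitosis were lower. Of 50 members tested, 40 were lower and 1 higher at an FDR below 0.05, and 0 were past the 2-fold threshold in either direction. Their median log2 fold change was -0.36 beside 0.06 over all genes. *KIF20A*, a kinesin of cytokinesis, was at 70.1 and 69.2 CPM in the control libraries and 42.0 and 40.1 CPM with CRISPR-DREAM, with a log2 fold change of -0.76 (limma, standard error 0.07, adjusted p = 4.54e-05). The kinase gene *AURKA* was at 85.9 and 96.1 CPM in the control libraries and 58.0 and 58.3 CPM with CRISPR-DREAM (log2 fold change -0.64, limma adjusted p = 0.000132). Neither gene's groups overlapped, and the fall in each was well under 2-fold. *CDC20*, an activator of the anaphase-promoting complex, was at 170.3 and 180.4 CPM in the control libraries and 112 and 119 CPM with CRISPR-DREAM (log2 fold change -0.60, limma adjusted p = 6.29e-05). Replication genes moved by similar amounts. *TK1*, thymidine kinase of S phase, was at 242 and 257 CPM in the control libraries and 161 and 165 CPM with CRISPR-DREAM (log2 fold change -0.61, limma adjusted p = 2.45e-05), *CDT1*, which licenses origins, at 233 and 223 CPM in the control libraries and 170.1 and 148 CPM with CRISPR-DREAM (log2 fold change -0.52, limma adjusted p = 0.00102), and *PCNA*, the sliding clamp, at 445 and 437 CPM in the control libraries and 312 and 327 CPM with CRISPR-DREAM (log2 fold change -0.46, limma adjusted p = 7.44e-05). The 1 member higher was *CCNE1*, cyclin E1, at 14.6 and 13.7 CPM in the control libraries and 17.2 and 18.1 CPM with CRISPR-DREAM (log2 fold change 0.31, limma adjusted p = 0.0216). The count of lower members was 45 under median-of-ratios scaling and ran from 33 to 40 when each library was left out.

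The class was also compared between activators. Relative to dCas9-VPR, 34 of the 50 members were lower with CRISPR-DREAM at an FDR below 0.05 and 0 higher, beside the 5.21% lower and 7.9% higher of all genes. Relative to the SAM system, 2 were lower and 0 higher, beside 9.14% and 1.59% of all genes. The median of the members relative to the mean of the controls was -0.29 and -0.40 in the CRISPR-DREAM libraries, -0.33 and -0.36 with the SAM system, and -0.04 and -0.03 with dCas9-VPR. In a bulk culture, fewer cells of a type and less RNA per cell cannot be told apart.

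**Figure D3:**
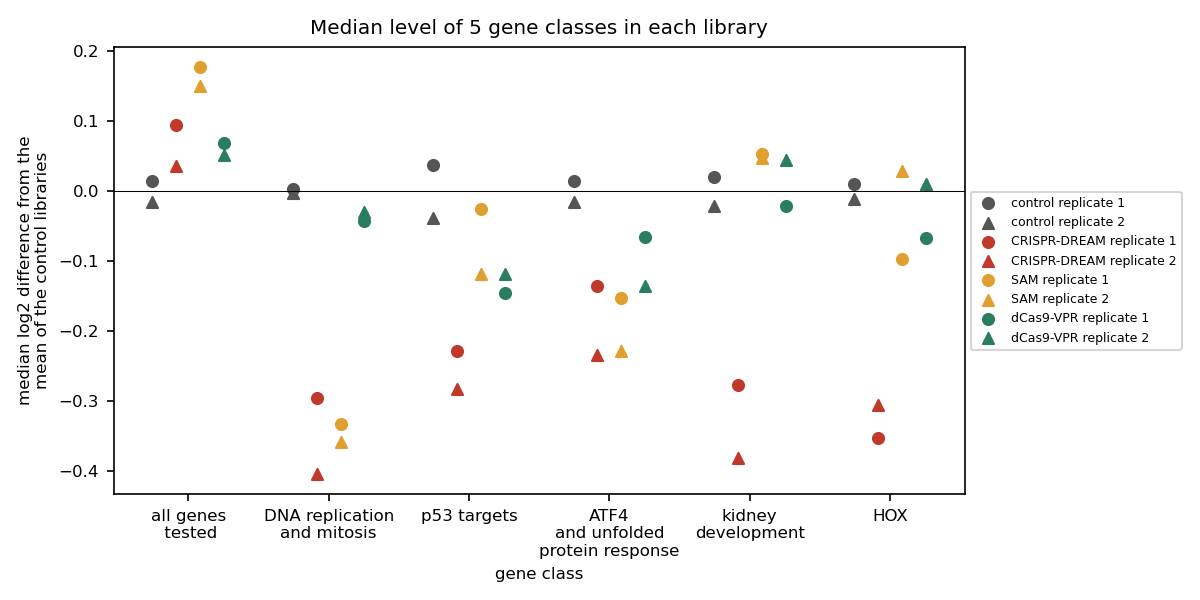
Median log2 difference from the mean of the control libraries (vertical) over all genes tested and over the members of 5 gene classes (horizontal), 1 point per library coloured by group. Both CRISPR-DREAM libraries lie below the other 6 libraries for p53 targets, kidney development and HOX, and with the SAM libraries for DNA replication and mitosis.

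Targets of p53, the stress-activated tumour suppressor whose activity the large T antigen of these cells restrains, were lower in 15 and higher in 5 (3 without control replicate 2) of 30 members at an FDR below 0.05. Past 2-fold, 3 were lower and 1 higher, and the median log2 fold change was -0.30. Besides *PLK2* and *EDA2R*, *DDB2*, a DNA damage recognition protein, was at 59.7 and 61.4 CPM in the control libraries and 24.1 and 24.2 CPM with CRISPR-DREAM, with a log2 fold change of -1.31 (limma, standard error 0.07, adjusted p = 1.44e-06). *AEN*, an apoptosis-enhancing nuclease, was at 289.9 and 292 CPM in the control libraries and 142 and 156 CPM with CRISPR-DREAM (log2 fold change -0.97, limma adjusted p = 3.13e-06). *BBC3*, which encodes the BH3-only protein PUMA, was at 50.1 and 47.6 CPM in the control libraries and 27.9 and 27.5 CPM with CRISPR-DREAM (log2 fold change -0.81, limma adjusted p = 6.29e-05). These genes fell in both CRISPR-DREAM libraries, with replicates far closer to each other than the groups were. Smaller falls were found for *GADD45A* (-0.65), the cyclin-dependent kinase inhibitor gene *CDKN1A* (-0.48) and *MDM2* (-0.38), whose product degrades p53. In the other direction, *TP53I3*, a quinone oxidoreductase gene, was at 4.85 and 4.76 CPM in the control libraries and 16.9 and 18.2 CPM with CRISPR-DREAM, with a log2 fold change of 1.76 (limma, standard error 0.11, adjusted p = 4.95e-06). *SFN*, which encodes 14-3-3 sigma, was at 1.02 and 1.27 CPM in the control libraries and 2.37 and 3.23 CPM with CRISPR-DREAM (log2 fold change 1.00, limma adjusted p = 0.00484). Relative to dCas9-VPR, 7 of the 30 members were lower and 2 higher, and relative to the SAM system 4 were lower and 1 higher. Over all genes the shares were 5.21% lower and 7.9% higher relative to dCas9-VPR, and 9.14% and 1.59% relative to the SAM system, so the counts against the SAM system and the count higher than dCas9-VPR lie near them.

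Genes of the integrated stress response and the unfolded protein response, driven by ATF4 and by sensors in the endoplasmic reticulum, changed in 1 direction where they changed. Of 41 members tested, 20 were lower and 0 higher at an FDR below 0.05, with a median of -0.17. The 1 member past 2-fold was *DDIT3*, the pro-apoptotic factor CHOP, at 87.6 and 97.9 CPM in the control libraries and 44.3 and 40.3 CPM with CRISPR-DREAM, with a log2 fold change of -1.12 (limma, standard error 0.08, adjusted p = 1.5e-05). *DDIT4*, an inhibitor of mTOR signalling, was at 634 and 646 CPM in the control libraries and 353 and 396 CPM with CRISPR-DREAM (log2 fold change -0.78, limma adjusted p = 1.73e-05). Both CRISPR-DREAM values were below both controls for each. *CHAC1*, which degrades glutathione, was at 112 and 118 CPM in the control libraries and 83.8 and 74.8 CPM with CRISPR-DREAM (log2 fold change -0.53, limma adjusted p = 0.000604), and *TRIB3*, a pseudokinase, at 289 and 290.2 CPM in the control libraries and 209 and 197 CPM with CRISPR-DREAM (log2 fold change -0.51, limma adjusted p = 0.000436). *HSPA5*, the chaperone BiP, and *ATF4* itself fell by smaller amounts, with log2 fold changes of -0.29 and -0.26. Between CRISPR-DREAM and the SAM system 0 of the 41 members differed at an FDR below 0.05 in limma, and 6 were lower and 2 higher relative to dCas9-VPR. Over all genes, 9.14% were lower and 1.59% higher relative to the SAM system, and 5.21% and 7.9% relative to dCas9-VPR.

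HOX genes, which set position along the body axis, were lower in 19 and higher in 2 of 34 tested members, out of 37 in the files, with a median of -0.37. By limma, 0 were past 2-fold. *HOXA5* was at 21.5 and 20.8 CPM in the control libraries and 11.6 and 12.6 CPM with CRISPR-DREAM, with a log2 fold change of -0.78 (limma, standard error 0.09, adjusted p = 0.000204). *HOXA10* was at 79.0 and 77.0 CPM in the control libraries and 50.3 and 53.6 CPM with CRISPR-DREAM (log2 fold change -0.58, limma adjusted p = 0.000226). Both lie in the HOXA cluster, where *HOXA4*, *HOXA6*, *HOXA7*, *HOXA9*, *HOXA11* and *HOXA13* were lower as well, with log2 fold changes of -0.78, -0.66, -0.58, -0.57, -0.56 and -0.54. The 2 members higher were *HOXC12*, at 2.39 and 1.66 CPM in the control libraries and 3.45 and 3.76 CPM with CRISPR-DREAM (log2 fold change 0.71, limma adjusted p = 0.00997), and *HOXD1*, with a log2 fold change of 0.58. The count of lower members was 9 without control replicate 2, 12 without control replicate 1 and 12 without CRISPR-DREAM replicate 1.

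In the list of kidney development, members that passed the test were lower. Of 23 tested, out of 33 listed, 11 were lower and 0 higher at an FDR below 0.05, with a median of -0.35. *EYA1*, a transcriptional coactivator of the developing kidney, was at 10.6 and 10.3 CPM in the control libraries and 6.83 and 7.27 CPM with CRISPR-DREAM, with a log2 fold change of -0.53 (limma, standard error 0.13, adjusted p = 0.0126). *FOXC1*, a forkhead factor, was at 80.1 and 75.5 CPM in the control libraries and 56.9 and 47.7 CPM with CRISPR-DREAM (log2 fold change -0.57, limma adjusted p = 0.00505). *HOXA11*, which belongs to both lists, was at 31.1 and 30.1 CPM in the control libraries and 20.3 and 21.0 CPM with CRISPR-DREAM (log2 fold change -0.56, limma adjusted p = 0.000697). All of these lay lower in both CRISPR-DREAM libraries than in either control. The count of lower members was 7 without CRISPR-DREAM replicate 2, 7 without control replicate 1 and 6 without control replicate 2. Between activators, 15 of 34 HOX genes and 8 of 23 kidney genes were lower with CRISPR-DREAM than with dCas9-VPR. Relative to the SAM system, 5 and 5 were lower, and 0 members were higher in either comparison. Over all genes, 5.21% were lower and 7.9% higher relative to dCas9-VPR, and 9.14% and 1.59% relative to the SAM system. The HOX count against the SAM system lies near that share. The median difference of HOX and kidney genes from the SAM system was -0.30 and -0.32, beside -0.09 over all genes.

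Target genes of the factors from which MSN derives were examined next. Of 30 SRF and MRTF targets tested, 9 were higher and 3 lower at an FDR below 0.05, 3 of them higher by more than 2-fold, with a median of 0.17. *TNS1*, tensin, which links integrins to actin, was at 0.638 and 0.424 CPM in the control libraries and 4.87 and 3.93 CPM with CRISPR-DREAM, with a log2 fold change of 2.25 (limma, standard error 0.18, adjusted p = 2.08e-05). *CNN1*, the smooth muscle calponin, was at 1.40 and 1.53 CPM in the control libraries and 4.27 and 4.39 CPM with CRISPR-DREAM (log2 fold change 1.30, limma adjusted p = 0.000167). *ITGA5*, the fibronectin receptor subunit, was at 36.7 and 31.8 CPM in the control libraries and 82.9 and 75.2 CPM with CRISPR-DREAM (log2 fold change 1.20, limma adjusted p = 1.24e-05). All 3 were higher in both CRISPR-DREAM libraries. *ACTA2*, smooth muscle actin, rose by less (0.58), *ACTB* did not pass the test (0.17, limma adjusted p = 0.0586), and *ACTG1* was lower (-0.38). Relative to the SAM system, 1 of these 30 genes was higher with CRISPR-DREAM and 0 lower, beside 1.59% and 9.14% of all genes. Relative to dCas9-VPR, 3 were higher and 5 lower, beside 7.9% and 5.21% of all genes. The median of the members relative to the mean of the controls was 0.224 and 0.128 in the CRISPR-DREAM libraries. It was 0.153 and 0.154 with the SAM system and 0.294 and 0.252 with dCas9-VPR. The count of higher members was 4 without control replicate 2.

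Of 27 NRF2 targets tested, 2 were higher, 5 (2 without control replicate 2 and 3 without CRISPR-DREAM replicate 1) lower and 0 past 2-fold in either direction, with a median of -0.01. *NQO1*, a quinone reductase and a classical NRF2 target, was at 3.64 and 3.58 CPM in the control libraries and 4.27 and 4.42 CPM with CRISPR-DREAM, which did not pass the test (limma adjusted p = 0.234). *EPHX1*, an epoxide hydrolase, was higher, at 51.3 and 53.1 CPM in the control libraries and 85.1 and 80.2 CPM with CRISPR-DREAM (log2 fold change 0.66, limma adjusted p = 6.54e-05). *SLC7A11*, the cystine transporter, was lower, at 100.4 and 96.5 CPM in the control libraries and 74.7 and 62.4 CPM with CRISPR-DREAM (log2 fold change -0.53, limma adjusted p = 0.00254). The iron storage gene *FTH1* was at 768 and 705 CPM in the control libraries and 749 and 669 CPM with CRISPR-DREAM, values that overlapped between groups. The pentose phosphate gene *TKT* was at 665 and 665 CPM in the control libraries and 643 and 708 CPM with CRISPR-DREAM, and its CRISPR-DREAM values lay on either side of the controls.

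Of 33 interferon-stimulated genes tested, out of 50 listed, 12 were higher and 6 (3 without CRISPR-DREAM replicate 2) lower. Antigen presentation genes were among the higher. *PSMB9*, an immunoproteasome subunit, was at 0.702 and 0.978 CPM in the control libraries and 2.69 and 3.16 CPM with CRISPR-DREAM, with a log2 fold change of 1.36 (limma, standard error 0.19, adjusted p = 0.000578). *HLA-B*, which presents peptides, was at 267 and 268 CPM in the control libraries and 349 and 382 CPM with CRISPR-DREAM (log2 fold change 0.45, limma adjusted p = 0.000402). Antiviral effectors were among the lower. *ISG20*, an exonuclease, was at 10.1 and 11.2 CPM in the control libraries and 3.89 and 4.11 CPM with CRISPR-DREAM (log2 fold change -1.30, limma adjusted p = 0.000247), *IFI27* at 4.05 and 4.30 CPM in the control libraries and 1.87 and 1.79 CPM with CRISPR-DREAM (log2 fold change -1.01, limma adjusted p = 0.00188, -0.97 without control replicate 2, -0.98 without CRISPR-DREAM replicate 2), and *IFIT1*, which binds viral RNA, at 4.66 and 5.35 CPM in the control libraries and 3.57 and 3.23 CPM with CRISPR-DREAM (log2 fold change -0.49, limma adjusted p = 0.0176). Members of the list therefore changed in opposite directions, and its median was 0.19. *PSMB9* overlaps *PSMB8* and *TAP1* on the other strand, and *HLA-B* has near-identical paralogs, so their read shares are uncertain.

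Other signalling and stress lists had few or no members past 2-fold. Of 34 immediate early genes, 7 (4 without control replicate 2) were higher and 9 (4 without control replicate 2) lower. *EGR3* was at 1.12 and 0.880 CPM in the control libraries and 2.88 and 3.30 CPM with CRISPR-DREAM (log2 fold change 1.26, limma adjusted p = 0.000825), and *EGR1* and the antiproliferative gene *BTG2* were higher (0.72 and 0.82). *JUN*, a subunit of AP-1, was lower, at 247 and 229.8 CPM in the control libraries and 197 and 173 CPM with CRISPR-DREAM (log2 fold change -0.37, limma adjusted p = 0.0270). *ATF3*, a stress-induced repressor, was lower as well, at 235 and 252 CPM in the control libraries and 166 and 171 CPM with CRISPR-DREAM (log2 fold change -0.53, limma adjusted p = 8.21e-05). *FOS* did not pass the test, at 4.02 and 4.63 CPM in the control libraries and 5.31 and 6.74 CPM with CRISPR-DREAM. Of 25 NF-kB targets, 6 (2 without control replicate 2) were higher, among them *SDC4* (0.61), and 2 lower, among them *SOD2* (-0.20). Of 34 heat shock and chaperone genes, 5 (3 without control replicate 1, 0 without control replicate 2 and 3 without CRISPR-DREAM replicate 1) were higher and 7 (3 without control replicate 1 and 4 without control replicate 2) lower, with *HSP90AA1* at 1219 and 1174 CPM in the control libraries and 1054 and 986 CPM with CRISPR-DREAM (log2 fold change -0.23, limma adjusted p = 0.00722), while the constitutive chaperone gene *HSPA8* did not pass the test (-0.07). Of 4 metallothionein list members tested, 2 were higher, *MT1X* (0.71) and *MT1F* (0.81), while *MT2A* (0.31) and the zinc exporter gene *SLC30A1* (-0.06) did not pass.

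**Figure D4:**
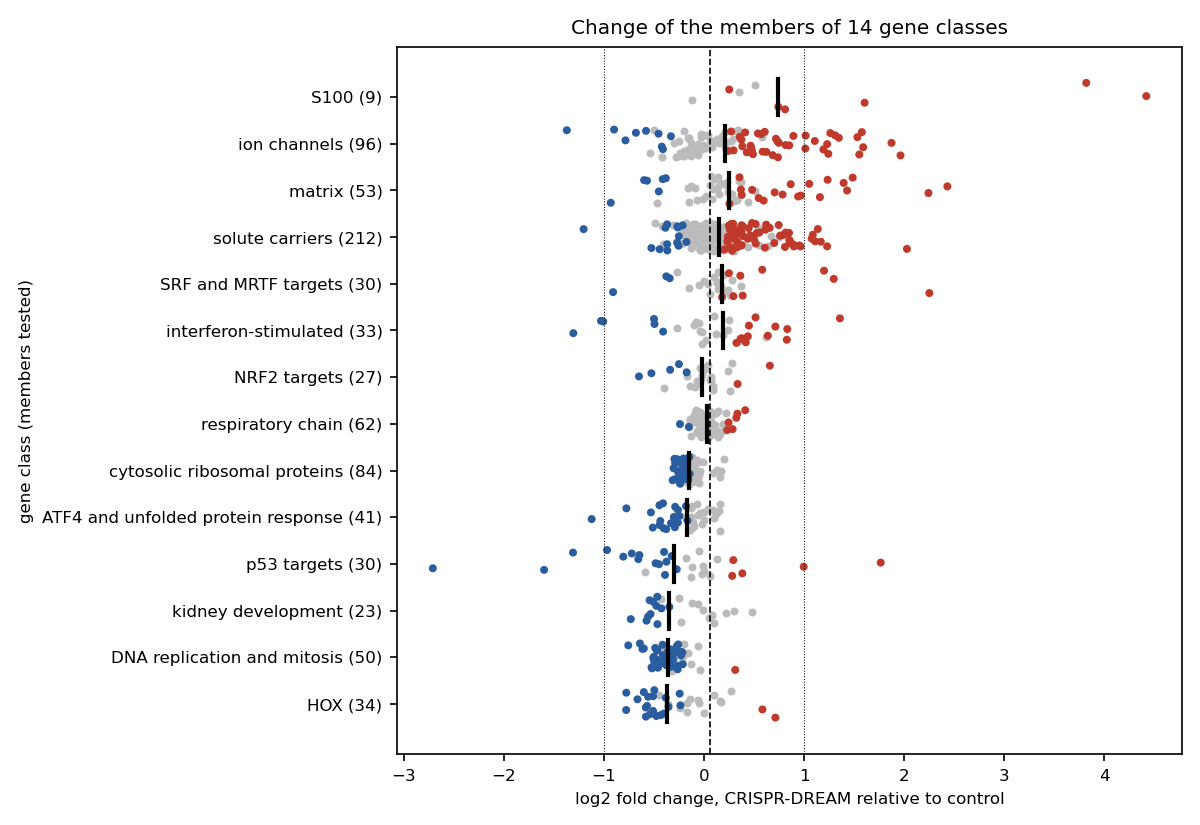
Log2 fold change of CRISPR-DREAM relative to control (horizontal) for each tested member of 14 gene classes (vertical, with the number tested). Red and blue points are members higher or lower at an FDR below 0.05, black bars are class medians, the dashed line is the median of all genes (0.06) and dotted lines mark 2-fold. Medians run from 0.74 for the S100 genes to -0.37 for HOX.

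Of 53 matrix genes tested, 20 were higher (37.7%, beside 18.8% of all genes) and 6 (3 without control replicate 1) lower, 8 were higher by more than 2-fold, and the median was 0.25, as the plot of class members shows. *SPARC*, a collagen-binding protein, was at 13.4 and 13.9 CPM in the control libraries and 35.4 and 43.1 CPM with CRISPR-DREAM, with a log2 fold change of 1.49 (limma, standard error 0.10, adjusted p = 9.15e-06). *COL6A3* was at 1.85 and 1.76 CPM in the control libraries and 6.26 and 5.20 CPM with CRISPR-DREAM (log2 fold change 1.43, limma adjusted p = 7.76e-05) and its partner chain *COL6A1* at 80.2 and 67.9 CPM in the control libraries and 163 and 145 CPM with CRISPR-DREAM (log2 fold change 1.05, limma adjusted p = 5.88e-05, 0.93 without control replicate 2, 0.96 without CRISPR-DREAM replicate 1). Both *COL6A3* and *COL6A1* were thus higher in each CRISPR-DREAM library than in either control, and other type VI collagen chains are not given here. In the other direction, the fibrillar collagen gene *COL3A1* was at 3.99 and 5.18 CPM in the control libraries and 1.96 and 2.35 CPM with CRISPR-DREAM (log2 fold change -0.93, limma adjusted p = 0.00289), and fibronectin, *FN1*, was lower (-0.38). The count of higher members was 13 without CRISPR-DREAM replicate 1 and 13 without control replicate 2.

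Of 149 ion channel genes in the files, 96 were tested, and 15 were higher and 1 lower by more than 2-fold. Of these 15, 6 had both controls below 1 CPM and were tested only because other libraries reached it, so the counts do not describe all channels. With a filter at 10 CPM, 28 were tested and 1 was higher by more than 2-fold. At an FDR below 0.05, 41 were higher and 9 (5 without control replicate 2) lower, and the median was 0.21. *TRPV2*, a cation channel, was at 1.75 and 1.17 CPM in the control libraries and 6.42 and 6.81 CPM with CRISPR-DREAM, with a log2 fold change of 1.87 (limma, standard error 0.18, adjusted p = 6.29e-05). *SCN4B*, a sodium channel beta subunit, was at 3.67 and 3.72 CPM in the control libraries and 9.59 and 10.8 CPM with CRISPR-DREAM (log2 fold change 1.35, limma adjusted p = 1.84e-05). Both were higher in both CRISPR-DREAM libraries than in either control. *GRIK5*, a kainate receptor subunit, was at 0.287 and 0.424 CPM in the control libraries and 2.47 and 1.72 CPM with CRISPR-DREAM (log2 fold change 1.59, limma adjusted p = 0.000412). *CACNA1S*, the calcium channel of skeletal muscle, was at 0.0320 and 0.196 CPM in the control libraries and 1.30 and 1.33 CPM with CRISPR-DREAM, so its control level rests on a few reads. The 1 member lower by more than 2-fold was *KCNN4*, a calcium-activated potassium channel, at 1.60 and 1.08 CPM in the control libraries and 0.316 and 0.105 CPM with CRISPR-DREAM (log2 fold change -1.37, limma adjusted p = 0.00217). Beside 18.8% of all genes, 42.7% of the members were higher. Members higher at an FDR below 0.05 numbered 25 without control replicate 2, and members higher by more than 2-fold numbered 10 with a pseudocount of 1.

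Of 212 solute carrier genes tested, 60 (35 without control replicate 2) were higher and 14 (8 without control replicate 1 and 9 without control replicate 2) lower, 7 and 1 of them past 2-fold. The share higher was 28.3% beside 18.8% of all genes, and the shares past 2-fold, 3.3% and 0.472%, lay near the 2.04% and 0.503% of all genes. *SLC16A5*, a monocarboxylate transporter, was at 2.11 and 1.43 CPM in the control libraries and 4.40 and 5.16 CPM with CRISPR-DREAM (log2 fold change 1.23, limma adjusted p = 0.000642), and *SLC38A3*, a glutamine transporter, at 13.9 and 14.54 CPM in the control libraries and 34.7 and 30.5 CPM with CRISPR-DREAM (log2 fold change 1.17, limma adjusted p = 1.5e-05). The sodium-calcium exchanger gene *SLC8A1* was lower, at 9.41 and 8.94 CPM in the control libraries and 3.56 and 3.86 CPM with CRISPR-DREAM (log2 fold change -1.20, limma adjusted p = 7.27e-05). *AQP3*, a channel for water and glycerol, was at 10.1 and 11.9 CPM in the control libraries and 40.1 and 47.1 CPM with CRISPR-DREAM, with a log2 fold change of 1.94 (limma, standard error 0.11, adjusted p = 3.13e-06), while *AQP4* and *AQP1* did not pass the test (0.36 and 0.16). Of 42 adhesion and orphan receptor genes, 5 were higher and 1 lower by more than 2-fold, and 3 of those higher had both controls below 1 CPM. The neighbours *ADGRG1* and *ADGRG3* on chromosome 16 (57610652 to 57665581 and 57668277 to 57689379) both rose. *ADGRG1* was at 0.192 and 0.131 CPM in the control libraries and 3.70 and 3.05 CPM with CRISPR-DREAM (log2 fold change 2.55, limma adjusted p = 6.25e-06) and *ADGRG3* at 0.542 and 0.424 CPM in the control libraries and 3.13 and 3.02 CPM with CRISPR-DREAM (log2 fold change 1.86, limma adjusted p = 3.73e-05). *GPR162* was at 3.35 and 3.91 CPM in the control libraries and 13.1 and 15.8 CPM with CRISPR-DREAM (log2 fold change 1.85, limma adjusted p = 1.08e-05). *S100B*, the remaining S100 gene past 2-fold, was at 0.0320 and 0.0653 CPM in the control libraries and 1.04 and 1.30 CPM with CRISPR-DREAM.

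In the TGF-beta, Nodal and BMP list, 8 of 35 genes were higher and 6 (3 without control replicate 2) lower. *LEFTY1*, the paralog of *LEFTY2*, was at 0.613 and 0.872 CPM in the control libraries and 2.02 and 1.40 CPM with CRISPR-DREAM (log2 fold change 0.82, limma adjusted p = 0.0156). The ID genes, BMP-responsive inhibitors of helix-loop-helix factors, were lower. *ID3* was at 62.9 and 74.6 CPM in the control libraries and 28.9 and 41.8 CPM with CRISPR-DREAM (log2 fold change -0.97, limma adjusted p = 0.00333), *ID2* at 103 and 112 CPM in the control libraries and 56.2 and 66.3 CPM with CRISPR-DREAM (log2 fold change -0.81, limma adjusted p = 0.00126) and *ID1* at 7.18 and 7.79 CPM in the control libraries and 4.11 and 5.09 CPM with CRISPR-DREAM (log2 fold change -0.65, limma adjusted p = 0.0101), and *ID4* fell by less (-0.22). The inhibitory *SMAD7* did not pass the test (-0.20). In the Wnt list, 8 of 25 were higher and 2 lower. *WNT6*, a ligand, was at 0.861 and 0.750 CPM in the control libraries and 3.01 and 2.67 CPM with CRISPR-DREAM (log2 fold change 1.35, limma adjusted p = 0.000289), *NKD1*, a feedback inhibitor, at 3.76 and 3.55 CPM in the control libraries and 9.81 and 8.22 CPM with CRISPR-DREAM (log2 fold change 1.19, limma adjusted p = 8.57e-05), and *LGR6*, an R-spondin receptor, at 2.58 and 2.15 CPM in the control libraries and 6.30 and 4.71 CPM with CRISPR-DREAM (log2 fold change 1.06, limma adjusted p = 0.00127, 0.95 without control replicate 2, 0.86 without CRISPR-DREAM replicate 1). These 3 genes were higher in both CRISPR-DREAM libraries. In the Notch list, 7 (3 without control replicate 1, 4 without control replicate 2 and 3 without CRISPR-DREAM replicate 2) of 23 were higher and 3 lower. *MFNG*, a glycosyltransferase that modifies Notch, was at 0.702 and 1.04 CPM in the control libraries and 4.11 and 4.04 CPM with CRISPR-DREAM (log2 fold change 1.75, limma adjusted p = 4.97e-05), and neither the target gene *HEY1* (0.04) nor the receptor gene *NOTCH2* (0.01) passed the test.

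Classes that serve every cell had small changes. Of 84 cytosolic ribosomal protein genes, 30 were lower and 0 higher, with a median of -0.14 and a lowest value of -0.31. *RPS15A* was at 1943 and 1999.6 CPM in the control libraries and 1525 and 1650.2 CPM with CRISPR-DREAM (log2 fold change -0.31, limma adjusted p = 0.00138). This count moved with single libraries, to 8 without control replicate 2, 16 without CRISPR-DREAM replicate 1 and 58 without CRISPR-DREAM replicate 2. Mitochondrial ribosomal proteins had 5 (0 without control replicate 2) higher and 2 lower of 78, the respiratory chain 6 (12 without CRISPR-DREAM replicate 1) and 2 of 62, and coactivators 6 (10 without CRISPR-DREAM replicate 2) and 2 of 48. Under median-of-ratios scaling each of these had more members lower than higher. The proteasome had 0 higher and 5 (3 without control replicate 1 and 2 without control replicate 2) lower of 33. By limma 0 members of these 4 classes were past 2-fold. The mitochondrially encoded genes had 1 lower of 15. In glycolysis and hypoxia, 8 of 35 were higher, including the glucose transporter gene *SLC2A1* at 22.8 and 23.1 CPM in the control libraries and 46.2 and 52.7 CPM with CRISPR-DREAM (log2 fold change 1.09, limma adjusted p = 2.7e-05, 0.99 without CRISPR-DREAM replicate 2) and the aldolase gene *ALDOC* at 13.97 and 13.1 CPM in the control libraries and 27.5 and 31.2 CPM with CRISPR-DREAM (log2 fold change 1.09, limma adjusted p = 4.3e-05, 0.998 without CRISPR-DREAM replicate 2). Sterol and fatty acid synthesis had 6 (3 without control replicate 1, 1 without control replicate 2 and 3 without CRISPR-DREAM replicate 1) higher and 8 (4 without control replicate 2) lower of 33, none past 2-fold, with *ACLY* higher by 0.22 and *SCD* at -0.17 (limma adjusted p = 0.0560).

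Among lists of other cell types, few members were tested. Defining markers were low or not analysed here, apart from the fibroblast gene *COL1A1*. The values below therefore describe single genes and not cell types. Of 16 erythroid list genes tested of 34, 5 (3 without control replicate 2) were higher and 1 lower. *NFE2*, a haematopoietic transcription factor related to NRF2, had values of 0.319 and 0.228 CPM in the control libraries and 3.48 and 3.90 CPM with CRISPR-DREAM, with a log2 fold change of 2.44 (limma, standard error 0.17, adjusted p = 1.08e-05). Of 4 immune genes tested of 20, 1 was higher, the macrophage lysosomal gene *CD68* at 1.45 and 0.684 CPM in the control libraries and 5.12 and 5.10 CPM with CRISPR-DREAM (log2 fold change 1.89, limma adjusted p = 0.000167). Of 5 endothelial genes tested of 12, 4 were higher, among them the VEGF receptor gene *KDR* at 0.447 and 0.717 CPM in the control libraries and 2.47 and 2.46 CPM with CRISPR-DREAM (log2 fold change 1.47, limma adjusted p = 0.000285). *FLT1*, another VEGF receptor, was lower (-0.53). In the neuronal and synaptic list, 9 (5 without control replicate 2 and 5 without CRISPR-DREAM replicate 1) of 25 were higher and 4 lower. *SHANK1*, a postsynaptic scaffold, was at 1.28 and 1.4998 CPM in the control libraries and 3.89 and 4.78 CPM with CRISPR-DREAM (log2 fold change 1.35, limma adjusted p = 0.000295), *GRIN2D*, an NMDA receptor subunit, at 3.70 and 3.10 CPM in the control libraries and 8.54 and 8.85 CPM with CRISPR-DREAM (log2 fold change 1.24, limma adjusted p = 8.67e-05), and *NRXN2*, a neurexin, at 2.97 and 2.31 CPM in the control libraries and 7.31 and 5.58 CPM with CRISPR-DREAM (log2 fold change 1.14, limma adjusted p = 0.000864, 0.99 without control replicate 2, 0.96 without CRISPR-DREAM replicate 1). In the epithelial list, 9 of 27 were higher and 2 lower. The keratin gene *KRT8* was at 50.2 and 45.2 CPM in the control libraries and 113 and 107 CPM with CRISPR-DREAM (log2 fold change 1.20, limma adjusted p = 1.3e-05) and the tight junction gene *CLDN7* at 1.98 and 2.41 CPM in the control libraries and 4.75 and 7.09 CPM with CRISPR-DREAM (log2 fold change 1.23, limma adjusted p = 0.000931, 0.96 without CRISPR-DREAM replicate 2). Of 8 fibroblast genes tested, *COL1A1* was higher (0.37) and *COL3A1* lower.

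Zinc finger genes of the ZNF family were lower in 70 and higher in 16 (6 without control replicate 2, 8 without CRISPR-DREAM replicate 1 and 27 without CRISPR-DREAM replicate 2) of 413 tested, with 5 and 2 past 2-fold and a median of -0.07. *ZNF79* was at 22.2 and 22.6 CPM in the control libraries and 8.07 and 8.60 CPM with CRISPR-DREAM (log2 fold change -1.38, limma adjusted p = 1.24e-05) and *ZNF57* at 12.4 and 11.3 CPM in the control libraries and 4.50 and 4.81 CPM with CRISPR-DREAM (log2 fold change -1.26, limma adjusted p = 8.48e-05), while *ZNF385A* rose, at 14.6 and 12.2 CPM in the control libraries and 37.5 and 36.9 CPM with CRISPR-DREAM (log2 fold change 1.44, limma adjusted p = 6.09e-06). The count of lower members was 111 under median-of-ratios scaling, 39 without control replicate 1 and 38 without control replicate 2. The cytochrome P450 genes *CYP4F3* and *CYP4F2*, close paralogs of fatty acid hydroxylation, were the 2 members of their family lower by more than 2-fold. *CYP4F3* was at 3.89 and 2.84 CPM in the control libraries and 0.266 and 0.316 CPM with CRISPR-DREAM (log2 fold change -2.27, limma adjusted p = 4.44e-05). *CYP4F2* was at 2.94 and 1.47 CPM in the control libraries and 0.303 and 0.141 CPM with CRISPR-DREAM (log2 fold change -1.86, limma adjusted p = 0.00148). Reads of these paralogs could be split between them. Of 30 histone genes tested of 55, 1 was lower by more than 2-fold, *H2BC11* at 4.53 and 5.90 CPM in the control libraries and 1.71 and 2.46 CPM with CRISPR-DREAM (log2 fold change -1.15, limma adjusted p = 0.00137, -0.98 without control replicate 2, -0.94 without CRISPR-DREAM replicate 1), and the variant gene *H2AZ1* fell by less (-0.34). Motor genes split, with 11 (7 without control replicate 1) of 54 kinesin and dynein genes lower and 8 (2 without control replicate 2 and 4 without CRISPR-DREAM replicate 1) higher, and mitotic kinesins such as *KIF20A* were among the lower.

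Of 134 LINC genes tested of 337, 20 (13 without control replicate 1 and 8 without control replicate 2) were higher and 7 (3 without control replicate 1, 4 without control replicate 2 and 4 without CRISPR-DREAM replicate 1) lower. The 14.9% higher lay below the 18.8% of all genes. *LINC01522* was at 0.840 and 0.570 CPM in the control libraries and 2.54 and 2.31 CPM with CRISPR-DREAM (log2 fold change 1.29, limma adjusted p = 0.00101) and *LINC01152* at 1.66 and 1.01 CPM in the control libraries and 3.95 and 3.22 CPM with CRISPR-DREAM (log2 fold change 1.17, limma adjusted p = 0.00123, 0.91 without control replicate 2). Of 295 antisense transcripts tested of 520, 44 (28 without control replicate 1, 18 without control replicate 2 and 28 without CRISPR-DREAM replicate 1) were higher and 7 lower, 14.9% and 2.37% beside 18.8% and 9.25% of all genes. Their reads may not be separable from those of the opposite strand. One pair moved together. *NR2F1*, an orphan nuclear receptor gene, was at 19.0 and 22.4 CPM in the control libraries and 10.7 and 8.99 CPM with CRISPR-DREAM (log2 fold change -1.03, limma adjusted p = 0.000130, -0.92 without control replicate 2, -0.92 without CRISPR-DREAM replicate 2), and *NR2F1-AS1* at 11.7 and 15.1 CPM in the control libraries and 5.69 and 6.29 CPM with CRISPR-DREAM (log2 fold change -1.08, limma adjusted p = 0.000300, -0.91 without control replicate 2). Of 17 microRNA host genes, 1 was higher and 4 lower. Of 17 genes of small noncoding RNAs tested (signal recognition particle, nucleolar and spliceosomal), 0 passed the test in limma, with a median of 1.15. This count depended on the libraries fitted, since 11 were higher, 9 of them by more than 2-fold, when only the CRISPR-DREAM and control libraries were used. *RN7SL1*, an RNA of the signal recognition particle, was at 12.5 and 21.7 CPM in the control libraries and 39.7 and 38.9 CPM with CRISPR-DREAM, with no call (limma adjusted p = 0.204). Its near-identical copy *RN7SL2* was at 12.2 and 23.1 CPM in the control libraries and 38.3 and 37.6 CPM with CRISPR-DREAM, with no call either (limma adjusted p = 0.149). Their levels differed between replicates of the other groups, with a class median relative to control of 1.32 and -0.14 in the 2 SAM libraries.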

How the data were processed

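RNA-seq of 8 HEK293T libraries was analysed from 1 table per library. The authors deposited CPM values on hg38, with an offset of 0.0001, made with STAR 2.7.3a and DESeq2 3.5 per the labels. The labels call the RNA polyA, whereas the kit named is stranded and for total RNA, and whether reads were counted by strand is not given in the sources used here. The authors' fold changes and p-values in the same tables were not used. Depth was estimated from the steps of low values (28.44 to 35.14 M reads). Between 65.2% and 70.1% of low values were whole reads within 0.05 read, so reads were not recovered.

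Log2(CPM + 0.5) was fitted for the 15122 genes that reached 1 CPM in 2 or more libraries with limma 3.58.1 (R 4.3.3, trend and robust, 4 residual degrees of freedom), with Benjamini-Hochberg adjustment over all genes tested. The threshold was a change of more than 2-fold with an FDR below 0.05. Named genes were the 15 largest rises and 12 largest falls with groups that did not overlap and at least 5 CPM in the higher group, and per class up to 4 members past the threshold or, where fewer than 2 passed, 2 members by level. A further 76 genes were chosen after their values were seen. Some of these genes, and 1 motif, are not reported here. The 26 lists and 18 families, and the genes, were chosen with earlier results of these data known, and lists are described by counts and medians with no test. On simulated data, 199 of 200 changed genes were recovered among 14772 tested, with 0 false calls. Besides counting noise, the simulation gave every gene the same spread, 0.0583 on the log2 scale, a typical value of genes with at least 10 CPM. Genes that vary more, changes near 2-fold and replicates that deviate together were not simulated. The result therefore says little about the errors in these data. Same-numbered replicates deviated together (r = 0.314 between control and CRISPR-DREAM over genes), but with 2 numbers this does not establish pairs.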

Additional observations from a re-analysis of the deposited data

Results flagged for a closer look

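Changes that differed between activators are listed because the difference itself passed the test (limma, more than 2-fold at an FDR below 0.05). Over all genes, 0.734% passed relative to dCas9-VPR and 0.721% relative to the SAM system. Most named genes were chosen by values in the CRISPR-DREAM libraries, which these tests use again, so the list leans toward larger changes with CRISPR-DREAM. Relative to dCas9-VPR, CRISPR-DREAM was higher on the log2 scale by 1.98 for *S100A16*, 1.03 for *S100A1*, 2.26 for *ADAMTS4*, 1.33 for *DUSP13*, 1.01 for *TNNC1* and 1.29 for *DNALI1*. The differences were 1.18 for *SYNPO*, 1.22 for *CCR10* and 1.18 for *BIK*. Among genes of the classes, they were 1.05 for *SHANK1*, 1.49 for *NFE2*, 1.25 for *KDR*, 1.37 for *TRPV2*, 1.11 for *CACNA1S*, 1.18 for *AQP3*, 1.27 for *ADGRG1*, 1.01 for *ADGRG3*, 1.06 for *GPR162* and 1.06 for *LINC01522*. Genes chosen after their values were seen gave 1.07 for *RYR1*, 1.54 for *HLA-DRB5* and 1.19 for *ALDH1A1*. Relative to the SAM system, the difference was 1.97 for *S100A1* and -1.12 for *ALDH1A1*. No group had the 4 libraries needed to look for a single outlying library.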

How the results depend on the processing

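With pseudocounts of 0.1 and 1 the genes past the threshold numbered 570 and 258, of which 116 and 50 were lower, against 385 and 76 at 0.5. A filter at 10 CPM, which tests fewer genes, gave 104 (85 higher, 19 lower). A fold change above 1.5 gave 1360 (982 and 378), no fold threshold 4236 (2837 and 1399), and limma's treat test against 2-fold 59 (50 and 9). Leaving out 1 library gave 385 to 444 genes in all, 304 to 360 higher and 81 to 102 lower, where the remaining library of a group was assumed to vary like those of the other groups. Between CRISPR-DREAM and the SAM system, the count was 50 with a pseudocount of 1 and 11 with a filter at 10 CPM, and relative to dCas9-VPR 51 and 20. The replicate block gave 391 genes (315 higher, 76 lower), but at an FDR below 0.05 without a fold threshold it gave 4444 higher and 2312 lower. Of 51 counts of 5 or more class members at this FDR, the block moved 15 by over 1.5 times, among them SRF and MRTF targets higher from 9 to 18 and ribosomal proteins lower from 30 to 65. The fit of only the CRISPR-DREAM and control libraries moved 15, median-of-ratios scaling 14, the filter at 10 CPM 18 and leaving out control replicate 2 32. Median-of-ratios scaling gave 371 and lowered the median of all genes to -0.006.

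Of 103 named genes past the threshold, 82 stayed past it under the alternatives that gave them a value, leaving aside the treat test, which 36 passed, and 0 changed direction. The filter at 10 CPM gave a value for 38. Calls were lost for 12 genes with a pseudocount of 1, 5 under median-of-ratios scaling, 11 without control replicate 2, 1 without control replicate 1, 8 without CRISPR-DREAM replicate 1 and 7 without CRISPR-DREAM replicate 2. *LGR6*, *IFI27* and *SCN4A* each lost the call under 4 alternatives. *COL6A1* fell to a log2 fold change of 0.932 and *NR2F1* stood at -0.916 at the nearest to 0. Genes with changes near 0 reversed. Under median-of-ratios scaling *TKT* was at -0.055, *ATP5F1B* at -0.048, *HEY1* at -0.031, *NOTCH2* at -0.066 and *MRPL12* at -0.069. Without 1 library, values ran from -0.137 to 0.025 for *FTH1*, -0.05 to 0.09 for *TKT*, -0.165 to 0.027 for *HSPA8*, -0.023 to 0.076 for *ATP5F1B*, -0.163 to 0.013 for *ATP5F1A*, -0.049 to 0.019 for *PSMB4*, -0.092 to 0.012 for *PSMB1*, -0.004 to 0.235 for *SMARCC1*, -0.157 to 0.174 for *NOTCH2*, -0.139 to 0.008 for *TFRC*, -0.059 to 0.014 for *MRPL37*, -0.108 to 0.119 for *MRPL12*, -0.155 to 0.42 for *MT-CO1*, -0.359 to 0.071 for *MT-RNR2* and -0.192 to 0.357 for *PCDHGA11*. The cause was not tested. Depth limits genes whose control values rest on a few reads or fewer, such as *CACNA1S*, *SGCA* and *TNNI1*.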

Other observations

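Classes formed after the values of all genes were seen are given as descriptions. Of 72 genes listed for striated muscle, 47 were in the files and 31 passed the filter on low values, of which 15 were higher and 2 lower by more than 2-fold at an FDR below 0.05 in limma. Of the 15, 13 had both controls below 1 CPM, and 7 were higher with a pseudocount of 1. In all, 16 of the 31 had both controls below 1 CPM and were tested only because activator libraries reached it. These counts therefore lean toward rises and do not describe the whole list. As shares of the genes tested, 48.4% were higher and 6.45% lower by more than 2-fold, beside 2.04% and 0.503% of all genes. The sarcoglycan gene *SGCA* was at 0 and 0.0327 CPM in the control libraries and 1.52 and 1.58 CPM with CRISPR-DREAM, a control level of at most 1 read. *TNNI1*, slow skeletal troponin I, was at 0 and 0.0327 CPM in the control libraries and 0.823 and 1.05 CPM with CRISPR-DREAM. *CKM*, muscle creatine kinase, was at 0.766 and 0.685 CPM in the control libraries and 2.09 and 2.25 CPM with CRISPR-DREAM (log2 fold change 1.12, limma adjusted p = 0.000605), and *RYR1*, the calcium release channel of skeletal muscle, at 0.415 and 0.359 CPM in the control libraries and 2.18 and 1.30 CPM with CRISPR-DREAM. Both genes were higher in both CRISPR-DREAM libraries. *SCN4A*, the sodium channel of skeletal muscle, was at 1.21 and 0.946 CPM in the control libraries and 2.94 and 2.42 CPM with CRISPR-DREAM (log2 fold change 1.01, limma adjusted p = 0.00489, 0.89 without control replicate 2, 0.89 without CRISPR-DREAM replicate 1). The 2 members lower were the Z-disc genes *ACTN2*, at 4.34 and 5.28 CPM in the control libraries and 1.04 and 1.26 CPM with CRISPR-DREAM (log2 fold change -1.68, limma adjusted p = 0.000111), and *MYPN*, at 3.25 and 2.05 CPM in the control libraries and 0.538 and 0.351 CPM with CRISPR-DREAM (log2 fold change -1.72, limma adjusted p = 0.000422). Relative to dCas9-VPR, 11 of the 31 were higher with CRISPR-DREAM and 0 lower at an FDR below 0.05, and relative to the SAM system 1 and 2. Over all genes the shares were 7.9% and 5.21% relative to dCas9-VPR, and 1.59% and 9.14% relative to the SAM system. The list was formed after the CRISPR-DREAM values were seen, and these comparisons use them again, so the counts are descriptions only.

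Of 14 class II antigen presentation genes in the files, 10 were tested and 7 were higher by more than 2-fold, 70.0% beside 2.04% of all genes. Like the SNHG list below, this list was formed after the values were seen, so these shares are descriptions only. *HLA-DRB1* was at 10.3 and 12.3 CPM in the control libraries and 25.7 and 29.2 CPM with CRISPR-DREAM (log2 fold change 1.25, limma adjusted p = 0.000101), *HLA-DPA1* at 12.1 and 11.2 CPM in the control libraries and 31.2 and 33.8 CPM with CRISPR-DREAM (log2 fold change 1.44, limma adjusted p = 4.2e-06) and *HLA-DMA*, which loads peptides, at 2.55 and 3.26 CPM in the control libraries and 7.39 and 10.6 CPM with CRISPR-DREAM (log2 fold change 1.47, limma adjusted p = 0.000281). *HLA-DRB5* was at 2.52 and 2.98 CPM in the control libraries and 9.53 and 13.2 CPM with CRISPR-DREAM, and the DRB genes are near-identical copies. The class II activator gene *CIITA* was at 0.236 and 0.238 CPM in the control libraries and 0.117 and 0.277 CPM with CRISPR-DREAM and the invariant chain gene *CD74* at 0.192 and 0.261 CPM in the control libraries and 0.538 and 0.843 CPM with CRISPR-DREAM, both below the filter. Of 22 SNHG host genes tested, 10 were lower and 0 higher at an FDR below 0.05, with a median of -0.30. As a share, 45.5% were lower, beside 9.25% of all genes. *SNHG15* was at 110.2 and 119.7 CPM in the control libraries and 51.0 and 51.0 CPM with CRISPR-DREAM (log2 fold change -1.16, limma adjusted p = 3.55e-06), *SNHG12* at 29.5 and 30.8 CPM in the control libraries and 14.52 and 14.2 CPM with CRISPR-DREAM (log2 fold change -1.05, limma adjusted p = 0.000152) and *SNHG9* at 4.75 and 5.31 CPM in the control libraries and 1.39 and 1.40 CPM with CRISPR-DREAM (log2 fold change -1.54, limma adjusted p = 0.000249). All 3 fell in both CRISPR-DREAM libraries. *SNHG15* was at 47.2 and 51.9 CPM with the SAM system and 42.0 and 40.6 CPM with dCas9-VPR, also below both controls.

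Single genes chosen after their values were seen include *ALDH1A1*, which makes retinoic acid and is in none of the classes. It was at 1.02 and 0.946 CPM in the control libraries and 2.91 and 4.04 CPM with CRISPR-DREAM, with a log2 fold change of 1.41 (limma, standard error 0.19, adjusted p = 0.000466). It was at 6.97 and 9.30 CPM with the SAM system and 1.14 and 1.32 CPM with dCas9-VPR, so CRISPR-DREAM lay between the other activators.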
